A study of Homo sapiens with 4 samples.

Results

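The J-domain co-chaperones of the DNAJ family were examined in ribosome footprints, the mRNA pieces that translating ribosomes shield from RNase, of the established human gastric cancer cell line SNU-668. Members were the protein-coding genes of the deposited table whose symbol is DNAJ followed by A, B or C and a number, with at most 1 letter after it. The rule found 38 genes among 16692, of which 4 belong to class A, 9 to class B and 25 to class C. Per the series text the cells are erastin-resistant (erastin inhibits the import of cystine and triggers ferroptosis, an iron-dependent cell death), while the library names carry RLS3, so the selecting compound is uncertain. The cells labelled ALKBH3 knockdown carried an shRNA against ALKBH3, a demethylase of alkylated DNA and RNA, and the control cells, whose genotype label is WT, carried a control shRNA. Each of the 2 cell populations gave 1 footprint library and 1 RNA library, 4 libraries in all. There were no replicates, so every interval below is a 95% counting interval and every difference is between single libraries and was not checked by a test.

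J-domain proteins are the obligate partners of the HSP70 chaperones. Their J domain, which carries a histidine-proline-aspartate motif, makes HSP70 hydrolyse ATP and so lock onto an unfolded client, and a nucleotide exchange factor later resets the cycle. Class A proteins have the J domain at the start, then a glycine- and phenylalanine-rich stretch and a zinc finger; class B proteins lack the zinc finger; class C proteins share only the J domain, and many of them serve a single task in one compartment. Several class A and B members of the cytosol are known as heat shock genes, driven by the transcription factor HSF1.

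The footprint libraries held 3742513 counts in the knockdown-labelled cells and 3795680 in the control cells, and the RNA libraries held 689375 knockdown-labelled and 554075 control counts. ALKBH3 had 22 footprints in the knockdown-labelled library and 14 in the control library (log2 ratio 0.59, interval -0.37 to 1.54), so the label was not borne out by footprints; its RNA count was 0 in both. Of the epithelial markers looked for, KRT18 had 538 knockdown-labelled and 462 control footprints, while KRT8 had 15 knockdown-labelled and 17 control footprints, EPCAM 2 knockdown-labelled and 0 control footprints and CLDN4 0 knockdown-labelled and 8 control footprints. Of 8 epithelial genes looked for, 6 were found in the table, these 4 among them. The 6 summed to 593 knockdown-labelled and 507 control footprints. Gastric markers were near 0, with 19 knockdown-labelled and 20 control footprints summed over the 5 of 12 genes found in the table. CLDN18 and MUC6 among them were at 0. Of 10 markers of other cell types, 7 were found. COL1A1 had 663 knockdown-labelled and 1001 control footprints and CD68 745 knockdown-labelled and 762 control footprints. VWF had 15 knockdown-labelled and 13 control footprints and DES 3 knockdown-labelled and 12 control footprints, while PTPRC, COL3A1 and ALB were at 0. The footprints thus carried little of the markers set for the labelled tissue. Their part in the results below was not tested.

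Of the 38 members, 25 had at least 100 footprints over both libraries and are called measured here. A gene was called higher or lower when the ratio of scaled footprints was at least 1.5-fold and its interval left out a ratio of 1. By that rule 3 members were lower in the knockdown-labelled cells (DNAJB1, DNAJB4 and DNAJC8) and 0 were higher. The background was 4.62% lower and 4.89% higher among the 7050 measured genes, or 326 lower and 345 higher genes. The share called lower was above the background, but it rests on 3 of 25 genes. By the interval alone, 5 of 25 members lay below 0 and 2 of 25 above, against 22.3% and 18.2% of all measured genes. These looser counts did not exceed the background. The median log2 ratio of the members was -0.01, beside -0.02 for all measured genes, and the standard deviations were 0.37 and 0.36. The split of calls over all genes moved with scaling, to 470 higher and 238 lower with plain column totals and to 589 higher and 176 lower with the deposited RPKM.

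**Figure D1:**
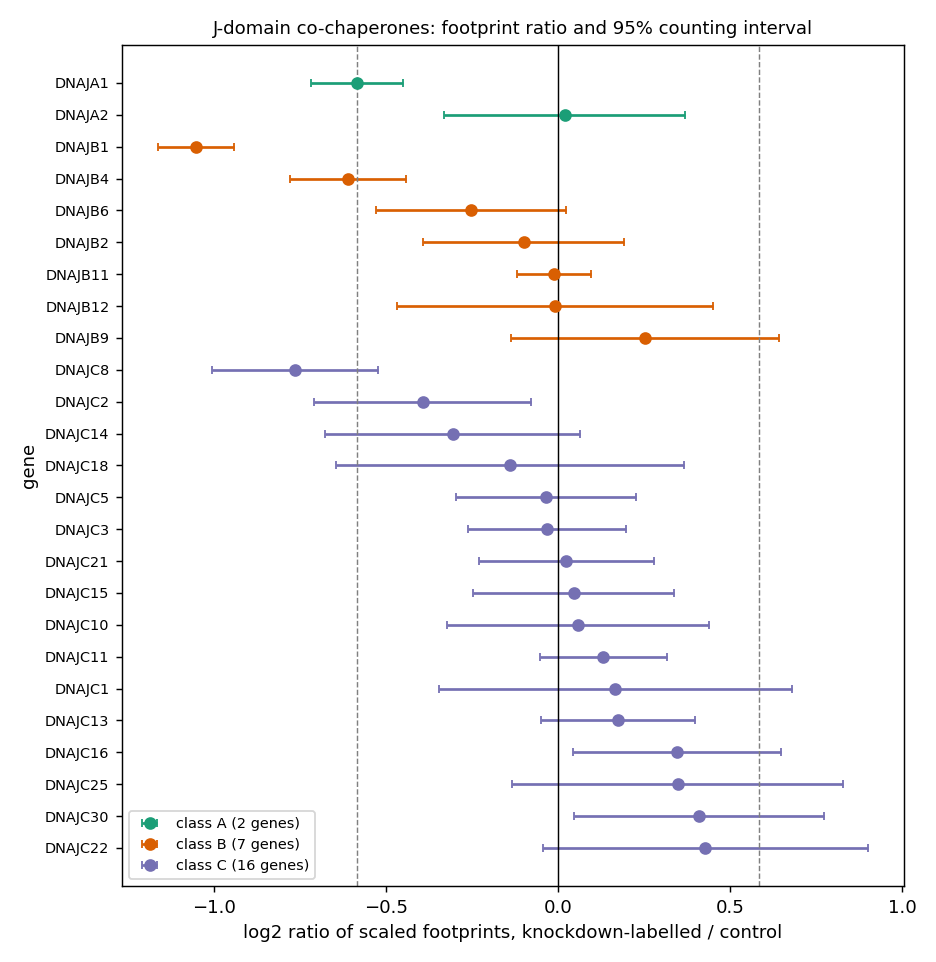
Log2 ratio of scaled footprints (horizontal axis, knockdown-labelled over control) for the 25 measured DNAJ genes (vertical axis), coloured by class, with 95% counting intervals; dashed lines mark 1.5-fold. DNAJB1 at -1.05, DNAJC8 at -0.76, DNAJB4 at -0.61 and DNAJA1 at -0.58 lie apart on the left, while 18 intervals cross 0.

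The class B protein DNAJB1 is the main heat-inducible HSP40 of the cytosol and nucleus. Its gene (ENSG00000132002) lies on chromosome 19, from 14625582 to 14629232 on the minus strand of hg19. It had 962 footprints in the knockdown-labelled library and 1932 in the control library, a log2 ratio of -1.05 (-1.16 to -0.94). Since whole cultures were lysed, a change in fewer cells and a smaller change in every cell cannot be told apart. DNAJB1 was the 1 member past 2-fold, in either direction, where 0.426% of measured genes were lower and 0.879% higher, and 0.312% of measured genes had a ratio below that of DNAJB1. DNAJB4 (ENSG00000162616, chromosome 1, 78470538 to 78483648, plus strand) is a second stress-inducible class B co-chaperone of the cytosol. It had 472 footprints in the knockdown-labelled cells and 698 in the control cells, a log2 ratio of -0.61 (-0.78 to -0.44). This call depended on scaling, since the ratio was -0.54 with plain totals and -0.49 with the deposited RPKM, both short of 1.5-fold.

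DNAJC8 (ENSG00000126698, chromosome 1, 28527068 to 28559536, minus strand) is a class C protein found with the splicing machinery. It had 220 footprints in the knockdown-labelled library and 362 in the control library, a log2 ratio of -0.76 (-1.01 to -0.52). DNAJA1 (ENSG00000086061, chromosome 9, 33025209 to 33039905, plus strand), the chief farnesylated class A co-chaperone of the cytosol, lay just outside the rule. It had 763 footprints in the knockdown-labelled cells and 1108 in the control cells, a log2 ratio of -0.58 (-0.72 to -0.45), where 1.5-fold is 0.585 on the log2 scale. With scaling over protein-coding genes only it just passed and was called. Measured from the median of all genes, which removes the library scaling, DNAJB1 was at -1.04, DNAJC8 at -0.75, DNAJB4 at -0.59 and DNAJA1 at -0.57. DNAJA1 has 6 pseudogenes in the RefSeq gene table, DNAJC8 has 3, DNAJB1 has 2 and DNAJB4 has 0. The most of any member, 8, belong to DNAJB6, which was not called. Reads that fit both a gene and such a copy cannot be assigned with certainty.

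Promoters are shown for these 4 genes because DNAJB1, DNAJB4 and DNAJC8 were called lower and DNAJA1 missed the rule narrowly; DNAJA1 was added after its values were seen. Each is a RefSeq window of GRCh38.p14 that runs from 250 bases before a start of the gene to 50 after it, given 5′ to 3′ on the gene's strand. Capitals mark heat shock letters, that is GAA and TTC facing each other with 2 bases between them, in either order, so that both strands are covered.
DNAJB1, chr19:14518348-14518647, minus strand: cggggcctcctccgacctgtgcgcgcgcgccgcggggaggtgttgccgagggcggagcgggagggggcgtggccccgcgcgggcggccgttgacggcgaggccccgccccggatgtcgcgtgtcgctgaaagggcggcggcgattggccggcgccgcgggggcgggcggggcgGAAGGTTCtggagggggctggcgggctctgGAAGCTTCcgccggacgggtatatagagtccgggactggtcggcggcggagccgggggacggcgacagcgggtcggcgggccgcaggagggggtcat
DNAJA1, chr9:33025023-33025322, plus strand: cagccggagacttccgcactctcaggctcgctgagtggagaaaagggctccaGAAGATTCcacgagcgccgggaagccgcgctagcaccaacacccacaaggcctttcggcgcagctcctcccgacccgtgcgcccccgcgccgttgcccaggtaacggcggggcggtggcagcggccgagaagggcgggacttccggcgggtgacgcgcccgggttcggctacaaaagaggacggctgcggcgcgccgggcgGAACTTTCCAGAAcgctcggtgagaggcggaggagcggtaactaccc
DNAJB4, chr1:78004689-78004988, plus strand: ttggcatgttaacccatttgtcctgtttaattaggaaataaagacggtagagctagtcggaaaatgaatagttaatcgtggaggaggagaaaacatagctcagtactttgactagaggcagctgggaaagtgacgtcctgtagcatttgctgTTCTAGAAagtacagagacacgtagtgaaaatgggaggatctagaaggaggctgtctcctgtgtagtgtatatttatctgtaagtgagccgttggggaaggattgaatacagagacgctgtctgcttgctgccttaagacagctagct
DNAJC8, chr1:28232980-28233279, minus strand: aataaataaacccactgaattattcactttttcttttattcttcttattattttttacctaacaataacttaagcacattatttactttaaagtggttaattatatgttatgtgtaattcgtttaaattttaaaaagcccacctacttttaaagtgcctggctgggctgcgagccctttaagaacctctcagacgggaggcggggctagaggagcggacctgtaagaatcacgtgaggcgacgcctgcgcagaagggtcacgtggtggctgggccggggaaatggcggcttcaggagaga

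The DNAJB1 window held 2 matches to 2 facing units, at 77 to 70 and at 47 to 40 bases before the start. The DNAJA1 window held a run of 3 units just past the start, at bases 4 to 16 of the gene, and a match to 2 units 198 to 191 bases before it. The DNAJB4 window held 1 match to 2 units, 98 to 91 bases before the start, and the DNAJC8 window held none. DNAJB1 has 3 windows in the table and DNAJB4 has 2, and the window shown for each is the one with the most matches. A second DNAJB1 window held 1 match and the remaining ones none. Over all 35116 promoter windows, 13.5% held 2 facing units and 0.490% held 3. Of the 43 windows of the 34 members found in the table, 20.9% held 2 units and 4.65% held 3, namely those of DNAJA1 and DNAJB6. Counted by gene, 16.2% of all 27305 genes and 23.5% of the 34 members had a window with 2 units. DNAJB6, which holds back protein aggregation, had 195 knockdown-labelled and 225 control footprints, a log2 ratio of -0.25 (-0.53 to 0.02), so the letters were also found in a member that was not called. Windows of DNAJC15, at 0.05 and not called, and of DNAJC6, DNAJA4 and DNAJB7, which were not measured, also held 2 units. A match describes the letters of the window and not the binding of a factor.

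In summed footprints, classes A and B were lower in the knockdown-labelled library by a like ratio, while class C was near 0 on the log2 scale. Class A had 919 footprints in the knockdown-labelled library and 1252 in the control library over all of its 4 genes, a log2 ratio of -0.49 (-0.62 to -0.37). Class B had 3450 knockdown-labelled and 4632 control footprints, a log2 ratio of -0.47 (-0.54 to -0.41). Class C had 3121 knockdown-labelled and 3034 control footprints, a log2 ratio of -0.01 (-0.08 to 0.07), beside -0.07 for the sum over all genes. Class C thus made up 41.7% of the family's footprints in the knockdown-labelled cells and 34.0% in the control cells, and class B 46.1% in the knockdown-labelled and 51.9% in the control cells. These sums turned on single genes: without DNAJB1, chosen for removal after its values were seen, class B was at -0.16 (-0.24 to -0.09). DNAJA1 held most of the class A counts. By members, 2 of 7 measured class B genes, 1 of 16 class C genes and 0 of 2 class A genes were called lower, beside 4.62% of all measured genes. The class C share, 6.25%, was near that background. The median log2 ratios were -0.28 in class A, -0.10 in class B and 0.05 in class C. The class A values depended on the setting: its median was 0.020 with minimum counts of 20 or 1, which bring in DNAJA3, and its ratio of summed RPKM was -0.087. Classes hold different genes and not replicates, so they are set side by side as a description.

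Among the other class B members, ratios lay between -0.25 and 0.25 and each interval held 0. DNAJB11, which works with the HSP70 protein HSPA5 (BiP) in the endoplasmic reticulum, had the most footprints of the family in the knockdown-labelled cells. It had 1413 footprints there and 1380 in the control cells, a log2 ratio of -0.01 (-0.12 to 0.09). DNAJB12, an endoplasmic reticulum membrane protein used in disposal of misfolded proteins, had 76 knockdown-labelled and 74 control footprints (-0.01, -0.47 to 0.45). DNAJB9, an inducible gene of the unfolded protein response, had 117 knockdown-labelled and 95 control footprints (0.25, -0.14 to 0.64). DNAJB2, which binds ubiquitylated clients, had 184 knockdown-labelled and 191 control footprints (-0.10, -0.39 to 0.19).

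In class A, DNAJA2, a general cytosolic co-chaperone like DNAJA1, had 133 footprints in the knockdown-labelled library and 127 in the control library (log2 ratio 0.02, -0.33 to 0.37). The 2 measured class A genes thus differed in ratio between these single libraries, the upper bound of DNAJA1 lying below the lower bound of DNAJA2. The deposited RPKM implies a counted length of about 144 bases for DNAJA2 and 1554 for DNAJA1, so the DNAJA2 counts cover a short stretch. DNAJA3, the mitochondrial class A member, had 23 knockdown-labelled and 17 control footprints, and DNAJA4 was listed at 0 in both libraries.

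Among class C genes, 10 of 16 ratios lay above 0, beside 3373 of all 7050 measured genes, and both counts depend on the scaling. The intervals of 2 class C genes lay above 0, which as a share (12.5%) is below the 18.2% of all measured genes. DNAJC30, a mitochondrial protein, had 143 footprints in the knockdown-labelled cells and 104 in the control cells, a log2 ratio of 0.41 (0.05 to 0.77). DNAJC16, of the endoplasmic reticulum membrane, had 201 knockdown-labelled and 153 control footprints (0.35, 0.04 to 0.65). DNAJC22 had the highest ratio of the measured members, at 85 knockdown-labelled and 61 control footprints (0.43, -0.04 to 0.90), and its interval held 0. None of them reached 1.5-fold. On the low side after DNAJC8 came DNAJC2, which sits on the ribosome near the exit of the nascent chain, with 143 knockdown-labelled and 182 control footprints (-0.39, -0.71 to -0.08). DNAJC14, an endoplasmic reticulum membrane protein, had 106 knockdown-labelled and 127 control footprints (-0.31, -0.68 to 0.06). Nearest to a ratio of 1 was DNAJC21, a ribosome maturation factor, with 252 knockdown-labelled and 240 control footprints (0.02, -0.23 to 0.28). DNAJC25 had 79 knockdown-labelled and 60 control footprints (0.35, -0.14 to 0.83), DNAJC18, of the endoplasmic reticulum membrane, 60 knockdown-labelled and 64 control footprints (-0.14, -0.65 to 0.37), and DNAJC1, which spans the same membrane, 65 knockdown-labelled and 56 control footprints (0.17, -0.35 to 0.68).

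The members' levels per length were compared by the deposited footprint RPKM, which scales reads by gene length and library depth. DNAJB1 stood at 191.2 RPKM in the knockdown-labelled library and 365.2 in the control library, where it was the highest member. DNAJA2 stood at 255.5 RPKM in the knockdown-labelled and 232.1 RPKM in the control library, but its value implies a counted length of about 144 bases, against 726 to 11970 bases for the other measured members, so its place in the order rests on a short stretch of the gene. By the mean of both libraries, DNAJB11 followed at 170.1 RPKM in the knockdown-labelled and 158.0 RPKM in the control library, DNAJA1 at 136.0 RPKM in the knockdown-labelled and 187.8 RPKM in the control library, and DNAJB4 at 74.1 RPKM in the knockdown-labelled and 104.3 RPKM in the control library. By the mean of both libraries, the highest in class C were DNAJC5, the cysteine string protein of secretory vesicles, at 78.6 RPKM in the knockdown-labelled and 74.2 RPKM in the control library, and DNAJC15, of the mitochondrial inner membrane, at 73.6 RPKM in the knockdown-labelled and 65.6 RPKM in the control library. DNAJC8 stood at 44.7 RPKM in the knockdown-labelled and 69.9 RPKM in the control library, where it was above DNAJC15. DNAJC15 had 193 knockdown-labelled and 181 control footprints (log2 ratio 0.05, -0.25 to 0.34). The lowest measured member was DNAJC14 at 6.67 RPKM in the knockdown-labelled cells, and DNAJC1 at 5.69 RPKM in the control cells. Among the leading members the order changed between the libraries, with DNAJA2 above DNAJB1 in the knockdown-labelled cells and below it in the control cells, and DNAJB11 above DNAJA1 in the knockdown-labelled cells and below it in the control cells.

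**Figure D2:**
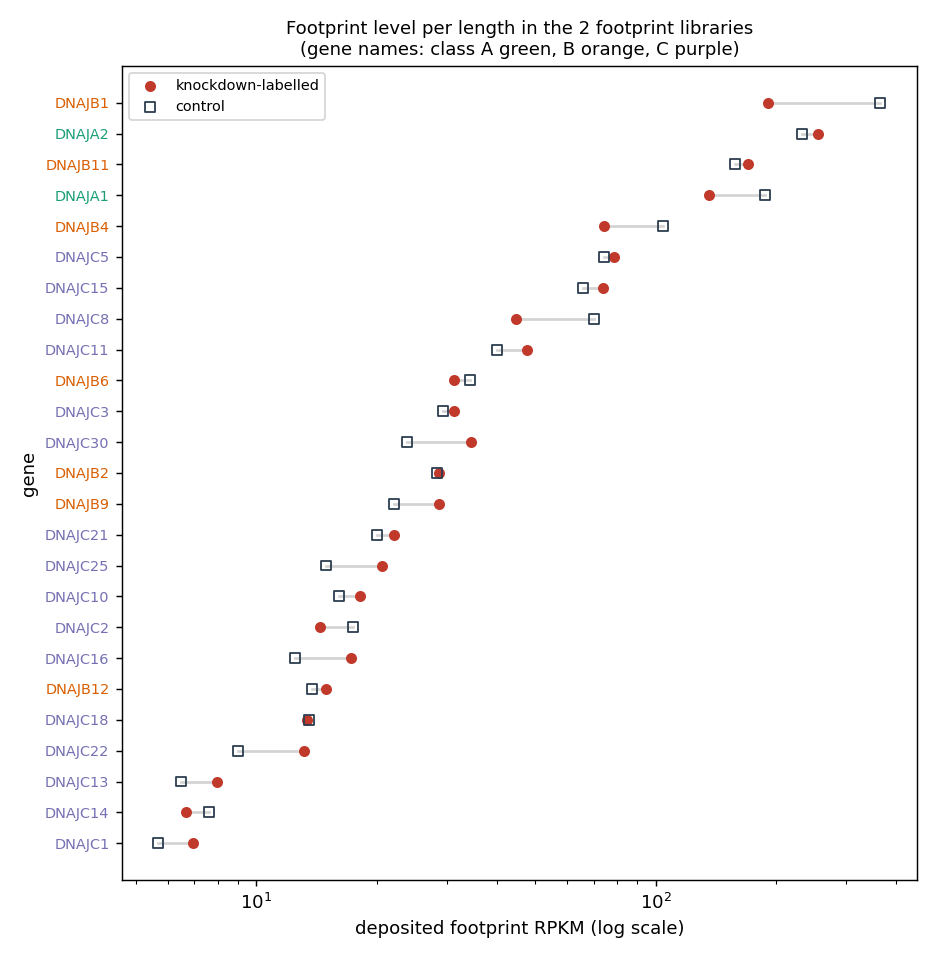
Deposited footprint RPKM (horizontal axis, log scale) of the 25 measured DNAJ genes, ordered by mean level, in the knockdown-labelled library (red circles) and the control library (open squares). Beyond the depth scaling that RPKM holds, no library scaling was applied to these values. The gap is widest for DNAJB1, at 191.2 in the knockdown-labelled and 365.2 in the control library. The lowest genes are of class C, and the class B gene DNAJB12 also lies low, at 14.9 in the knockdown-labelled and 13.8 in the control library.

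Grouped by known location or task, the 5 intervals below 0 lay in 2 groups; no difference between groups was tested. Of the general co-chaperones of the cytosol and nucleus, 6 of 8 listed genes were measured, 2 were called lower (4.62% of all measured genes) and 3 had intervals below 0 (22.3% of all measured genes), with a median of -0.42. Together they had 2709 footprints in the knockdown-labelled library and 4281 in the control library, a log2 ratio of -0.71 (-0.78 to -0.64). DNAJB1 alone held 962 of these knockdown-labelled and 1932 of these control footprints, and the group's ratio without it was not computed. The lower ones were DNAJB1, DNAJB4 and, short of 1.5-fold, DNAJA1; DNAJA2, DNAJB2 and DNAJB6 had intervals that held 0. The group acting on RNA, ribosomes and chromatin had a median of -0.39 over 3 measured genes of 6 listed. Of these 3, 1 was called lower (4.62% of all measured genes) and 2 had intervals below 0 (22.3% of all measured genes). They were DNAJC8, the one called, and DNAJC2, while DNAJC21 was at 0.02.

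The endoplasmic reticulum group had 9 measured genes, 0 called, and a median of -0.01. Its 10 listed genes held 2486 footprints in the knockdown-labelled cells and 2392 in the control cells, a log2 ratio of 0.01 (-0.07 to 0.09). It includes DNAJC3, an inhibitor of stress kinases that act on translation initiation, with 303 knockdown-labelled and 300 control footprints (-0.03, -0.26 to 0.20). It also includes DNAJC10, a disulfide reductase, with 114 knockdown-labelled and 106 control footprints (0.06, -0.32 to 0.44). The mitochondrial group had 3 measured genes, with ratios from 0.05 to 0.41 and 0 called; DNAJC11, which associates with the cristae-forming complex, had 506 knockdown-labelled and 447 control footprints (0.13, -0.05 to 0.32). Of the vesicle proteins, DNAJC5 was at -0.03 (-0.30 to 0.23), and DNAJC13, an endosomal protein, had 344 knockdown-labelled and 295 control footprints (0.17, -0.05 to 0.40). The signs of the members nearest to 0 depend on scaling: DNAJB2, DNAJB11, DNAJB12, DNAJC3 and DNAJC5, and with them the medians of class B and of the family, lay above 0 with the deposited RPKM.

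**Figure D3:**
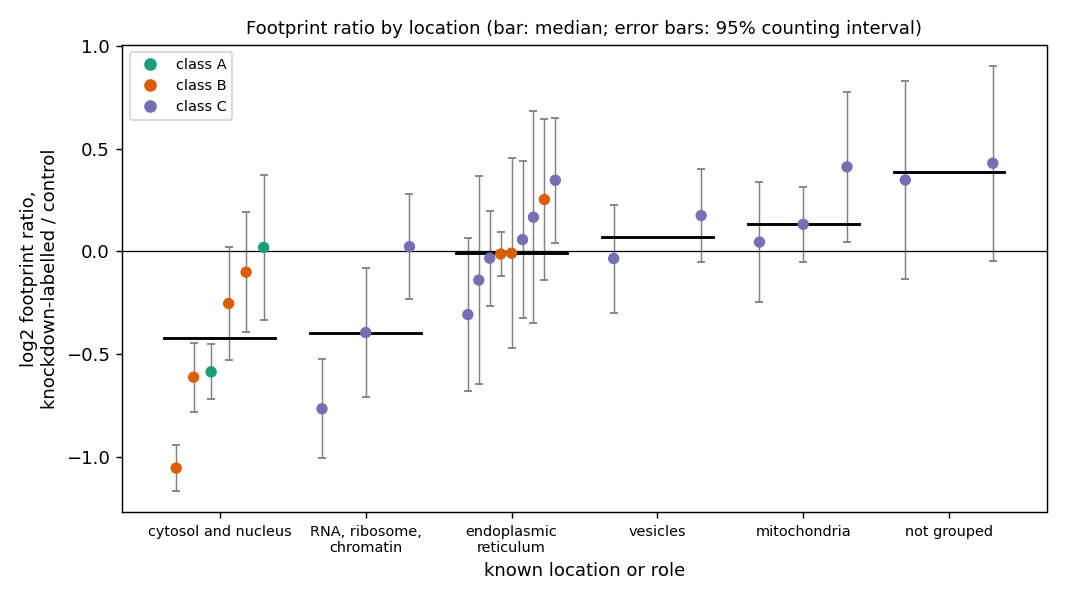
Log2 footprint ratio (vertical axis, knockdown-labelled over control) of the measured DNAJ genes by location or task, coloured by class; error bars are 95% counting intervals and black bars group medians. The median is -0.42 in the cytosolic and nuclear group and -0.01 in the endoplasmic reticulum group.

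Partners of the J proteins were taken from lists of HSP70 proteins and nucleotide exchange factors. Of 8 measured HSP70 proteins, 3 were called lower and 0 higher, with a median of -0.31, beside 4.62% lower and 4.89% higher of all measured genes. HSPA8, the constitutive cytosolic HSP70, had 5540 footprints in the knockdown-labelled cells and 8858 in the control cells (log2 ratio -0.72, -0.77 to -0.68). The inducible HSPA1A and HSPA1B, near-identical copies whose reads cannot be told apart with certainty, were at -2.41 and -3.11. HSPA9, the mitochondrial HSP70, was at 0.16 (0.05 to 0.26), and HSPA14, the HSP70-type partner of DNAJC2 on the ribosome, at 0.27 (-0.03 to 0.58). HSPA5, the HSP70 of the endoplasmic reticulum, was at -0.37 (-0.41 to -0.33), short of 1.5-fold, beside the -0.01 of its partner DNAJB11. Of 13 measured nucleotide exchange factors, 5 were called lower and 0 higher, with a median of -0.35, beside the same 4.62% and 4.89%. HSPH1, an HSP110 of the cytosol, had 177 knockdown-labelled and 524 control footprints (-1.61, -1.86 to -1.36). BAG3, a stress-inducible exchange factor, had 362 knockdown-labelled and 573 control footprints (-0.71, -0.90 to -0.52), and GRPEL1, a mitochondrial one, 402 knockdown-labelled and 670 control footprints (-0.78, -0.96 to -0.60). GRPEL2, also mitochondrial, had 151 knockdown-labelled and 125 control footprints (0.22, -0.12 to 0.57) and was not called. Of J-domain proteins under other symbols, SEC63, of the translocation channel of the endoplasmic reticulum, was at 0.24 (-0.02 to 0.49), and GAK, of clathrin uncoating, at -0.05 (-0.35 to 0.24). HSCB, of iron-sulfur cluster assembly, had 33 knockdown-labelled and 32 control footprints.

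**Figure D4:**
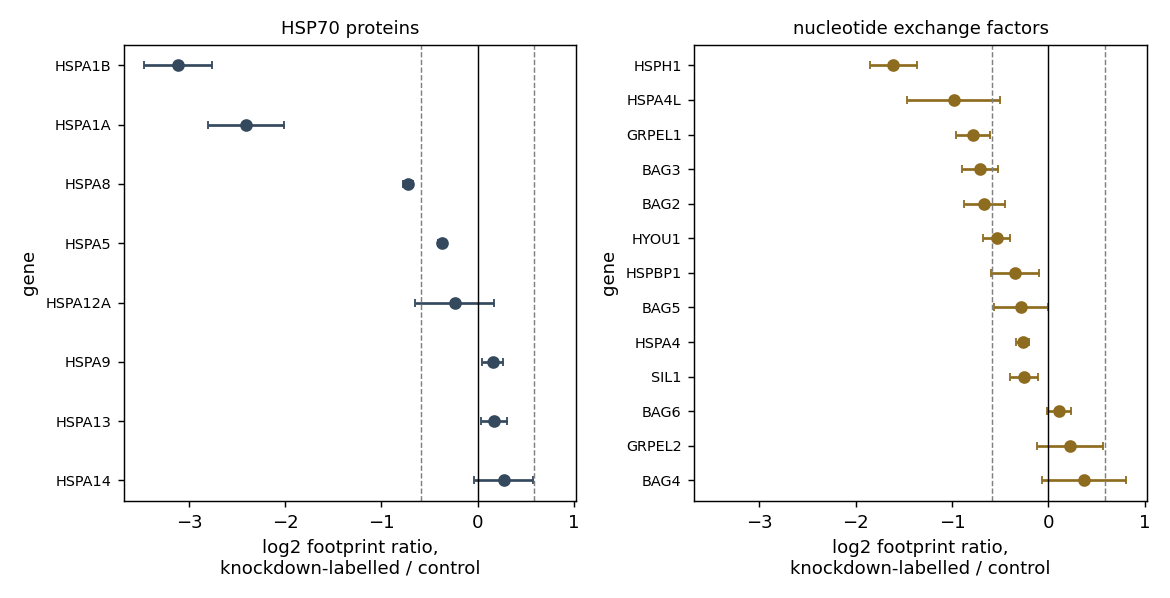
Log2 footprint ratio (horizontal axes, knockdown-labelled over control) of the measured HSP70 proteins (left) and nucleotide exchange factors (right), with 95% counting intervals and dashed lines at 1.5-fold. HSPA1B at -3.11, HSPA1A at -2.41 and HSPH1 at -1.61 lie farthest from 0, and the mitochondrial HSPA9 lies above 0 at 0.16.

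The other 13 members had fewer than 100 footprints over both libraries, and no ratio is given for them. DNAJC6, which uncoats clathrin vesicles, had 45 knockdown-labelled and 43 control footprints, DNAJB14, of the endoplasmic reticulum membrane, 31 knockdown-labelled and 37 control footprints, DNAJC28 13 knockdown-labelled and 4 control footprints, and DNAJC9, a histone co-chaperone, 12 knockdown-labelled and 11 control footprints. DNAJC4 had 0 in the knockdown-labelled library and 6 in the control library. DNAJC5B, DNAJC12 and DNAJC24 each had 1 footprint in the knockdown-labelled library and 0 in the control library, and DNAJC17 had 1 in each. DNAJA4, DNAJB7 and DNAJC7 were listed at 0 in both, which allows up to 0.783 CPM (counts scaled to a library of 1000000) in the knockdown-labelled library and 0.809 in the control library for counts in those rows. DNAJC7 is a widely expressed cytosolic co-chaperone, and these limits bound the table's counts and not its translation.

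RNA counts of the family were too few for a comparison of RNA or of footprints over RNA. The 38 members summed to 477 RNA counts in the knockdown-labelled library and 425 in the control library, against 7490 knockdown-labelled and 8918 control footprints, and 11 members had 0 RNA counts in both. DNAJB1 had 34 knockdown-labelled and 24 control RNA counts, DNAJA1 had 4 in each library, DNAJC8 had 8 knockdown-labelled and 2 control RNA counts, and DNAJB4 1 knockdown-labelled and 0 control RNA counts. The lower footprints of these genes can therefore not be set against their RNA. Only DNAJC14 passed 100 RNA counts, with 217 knockdown-labelled and 242 control counts (log2 ratio -0.59, -0.86 to -0.33). This ratio lay just past 1.5-fold, and RNA ratios were not computed under another scaling. Among all 1311 genes measured in RNA 10.8% were called lower. DNAJC14 overlaps ORMDL2 on the opposite strand, which had 204 knockdown-labelled and 170 control RNA counts and 200 knockdown-labelled and 122 control footprints. The labels and headers do not say whether the RNA libraries keep strand, so reads of this pair cannot be told apart. In all, 10 members overlap a listed gene on the opposite strand. DNAJC8 is one of them, and its partner AL353354.2 had 472 knockdown-labelled and 644 control RNA counts but 0 footprints. Antisense DNAJC9-AS1 had 342 knockdown-labelled and 275 control RNA counts, beside 7 knockdown-labelled and 12 control RNA counts of DNAJC9. Antisense RP4-680D5.8, opposite DNAJC16, had 2 knockdown-labelled and 1 control RNA counts. HSPA8, despite its many footprints, had 30 knockdown-labelled and 17 control RNA counts. How far RNA counts follow the mRNA of a gene was not tested.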

How the data were processed

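Footprint and RNA libraries of SNU-668 cells were compared between cells labelled ALKBH3 knockdown and control cells, 1 library each. Tools listed in the submitters' processing notes are FastQC, cutadapt, Bowtie and STAR, with hg19 as build and no versions or roles. Per the file headers, the authors deposited a read count per gene, in whole numbers; which counter was used, and how it treated strand and multi-mapping reads, is not stated in the labels or headers. The deposited RPKM values, also per the file headers, come from the authors; between the footprint libraries they scale with the counts by 1 constant (1.05), and the gene lengths used are not stated. The other 4 columns of values were not used.

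Log2 ratios, knockdown-labelled over control, were computed after adding 0.5 to each count, with TMM-scaled totals over all genes (edgeR 4.0.16, R 4.3.3). Intervals come from the counting error of both counts; as PCR copies were not marked, they and the limit at a count of 0 (3 counts) cover counting error only. Genes needed 100 counts over the 2 libraries of an assay. With 1 library per group no p-value is given. The calculation was tested on simulated counts that held counting error only, so that test does not cover variation between cultures or libraries. Members, lists and alternatives were chosen with earlier results of these data known. Full values are given for members called, the 2 of each class with the highest RPKM and the one nearest a ratio of 1, and for others where they show a group. Of the partners, values beyond those past 2-fold were chosen after they were seen. Alternatives were plain totals, DESeq2 1.42.0 size factors, deposited RPKM plus 0.1, minimum counts of 20 and 1, a prior count of 5, protein-coding genes only and a 2-fold minimum. Protein sequences were not used here. Promoter windows are RefSeq's, GRCh38.p14; 34 of 38 members matched by symbol, and no coordinates were converted between builds.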

Additional observations from a re-analysis of the deposited data

How the results depend on the processing

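DNAJB1 and DNAJC8 stayed lower at 1.5-fold under the 7 alternatives of scaling, filter, prior count and gene set. The number of members called lower ran from 2 (plain totals, deposited RPKM, both losing DNAJB4) to 4 (protein-coding genes only, adding DNAJA1, which sits at the threshold itself), and was 1 with a 2-fold minimum; 0 were called higher under any setting run. The deposited RPKM moved the median of all genes by 0.12 on the log2 scale, which accounts by construction for the shift of DNAJB4. The summed ratio of class B was -0.40 with plain totals, and -0.16 without DNAJB1, an alternative chosen after seeing the data. In summed RPKM, which changes both the weighting by length and the library scaling, class A was at -0.087 and class C at 0.082. DNAJA2, with an implied counted length of about 144 bases, held 255.5 of the 402.9 class A RPKM in the knockdown-labelled library. In the control library it held 232.1 of 427.9. The parts of weighting and scaling were not tested. The class A median was 0.020 with filters of 20 and 1 counts, which add DNAJA3. No paired analysis was possible because each group has 1 library, and leaving out replicates could not be run for the same reason. Depth limits members under 100 footprints, whose ratios are not given.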
